A study of Bos taurus with 8 samples.

Results

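The genes described here encode the proteins of the cytosolic ribosome, in the bovine endometrium. They were taken by name as every gene of the array called RPL or RPS with a number, plus RPLP0, RPLP1, RPLP2 and RPSA. Kinases of the RPS6K family, the binding protein RPS19BP1 and copies whose names end in L and a number (RPL7L1, RPL22L1, RPL26L1) were left out. The rule gave 79 genes with 295 probes, 46 genes of the large subunit and 33 of the small subunit. No measured value entered the choice. A probe was tested where 4 or more of the 8 arrays had it well above background. By that filter 78 of the 79 genes and 273 of their probes were tested, among 12617 tested genes in all. RPL10L was the gene left out. Names for RPL21, RPL22, RPL40, RPL41 and RPS30 were not among the members.

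The tissue came from 8 cows. Methylglyoxal, a reactive dicarbonyl that forms as a by-product of glycolysis and modifies proteins, was put into both uterine horns on day 1 after standing estrus, 25 mL to a horn. In 4 cows the concentration was 0 mM, the control, and in 4 other cows it was 5 mM. The horn beside the corpus luteum was biopsied on day 7, and its RNA was hybridised to a one-colour Agilent array, 1 array for each cow. The biopsies were whole tissue with epithelium, stroma and some muscle, so that fewer cells of a type and less RNA per cell cannot be told apart. Levels are log2 processed intensities relative to the 75th percentile of the array, and differences are 5 mM minus 0 mM on that log2 scale. Group means carry the SD between the 4 cows.

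A ribosome is built from ribosomal RNAs and a set of proteins that are needed in nearly equal amounts. Messengers of these proteins are among the most abundant in any growing cell. They begin with a pyrimidine tract, the TOP motif, through which their translation is controlled together by mTOR signalling. Some of the proteins have further roles outside the ribosome, and several have copies on other chromosomes that are expressed in particular tissues.

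The probes are 60 bases long. The 3 sets printed here bear on the agreement between probes, on signal from the opposite strand and on a copy whose name and position differ. RPS6, a small subunit protein that is phosphorylated by the S6 kinases, had 7 tested probes. Its brightest probe was at chr8:26433735-26433794, and its overlapping probes were at chr8:26436653-26436712 and chr8:26436662-26436721, all on the plus strand of build Btau_3.1. The capitals mark an unbroken run of 43 bases that the overlapping probes share.
RPS6 brightest probe: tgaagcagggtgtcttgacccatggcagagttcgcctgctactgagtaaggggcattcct
RPS6 probe in row 409: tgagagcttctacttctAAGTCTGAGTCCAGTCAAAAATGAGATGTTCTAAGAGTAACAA
RPS6 probe in row 531: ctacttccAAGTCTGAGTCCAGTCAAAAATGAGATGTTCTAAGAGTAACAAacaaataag

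RPL10, a large subunit protein added late in assembly, had probes on both strands. The plus strand probe lay at chrX:23718039-23718098 and the minus strand probe at chrX:23718027-23718087. The capitals mark 49 bases that are complementary between them.
RPL10 plus strand: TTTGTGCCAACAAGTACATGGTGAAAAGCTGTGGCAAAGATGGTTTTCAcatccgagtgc
RPL10 minus strand: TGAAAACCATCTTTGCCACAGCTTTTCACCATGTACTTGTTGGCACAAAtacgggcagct

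RPS4X lies on the X chromosome, and its human counterpart RPS4Y1 on the Y chromosome. The brightest RPS4X probe was at chrX:47882845-47883482 on the plus strand, an interval longer than the probe. The brightest probe named RPS4Y1 was placed at chr23:10765806-10765865, also on the plus strand. The sequences are given because the name and the position of the RPS4Y1 probe differ.
RPS4X: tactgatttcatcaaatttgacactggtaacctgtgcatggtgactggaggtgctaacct
RPS4Y1: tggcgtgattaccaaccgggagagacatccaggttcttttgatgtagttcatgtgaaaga

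Across the arrays, 75th percentiles ran from 1032 to 1456 intensity units, 68.3% to 73.3% of spots were well above background, and no spot was saturated. The arrays lay on 3 slides. The first replicates of each group shared slide 1. On slide 2 were control replicates 2 and 3 and, of the 5 mM group, replicate 2. The remaining arrays, control replicate 4 and replicates 3 and 4 of the 5 mM group, were on slide 3. The array of 5 mM replicate 1 stood apart. Its 19 tested markers of luminal and glandular epithelium had a median of -2.80 relative to their mean over the arrays, and its 14 smooth muscle markers one of 2.57.

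None of the 78 ribosomal protein genes passed an adjusted p of 0.05 between the groups (limma with Benjamini-Hochberg adjustment over 31108 probes), as was the case for 0% of all 12617 genes. None had an unadjusted p under 0.05 either, against 1.88% of all genes, and the lowest was 0.0511. The groups overlapped for all 76 members without a missing value, where 1.08% of all genes lay wholly higher in 5 mM and 0.545% wholly lower. The difference was above 0 in 75 of the 78, with a median of 0.14, while it was above 0 in 51.8% of all genes, with a median of 0.01. The split was 43 of 45 in the large subunit, with a median of 0.14, and 32 of 33 in the small subunit, with a median of 0.15. This split was not kept under other scalings: after quantile normalization 42 of 78 were above 0, with a median of 0.01, and after a shift to the spike-in controls 12 of 78, with a median of -0.12 beside -0.25 over all genes.

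The excess above 0 rested on 1 cow. The median member stood at 0.48 above its own mean over the arrays in 5 mM replicate 1. It stood at -0.01, -0.06, -0.15 and -0.06 in 0 mM replicates 1 to 4, and at -0.01, 0.02 and -0.17 in 5 mM replicates 2 to 4. These other 7 arrays thus lay between -0.17 and 0.02, whatever the group. Of the 76 members without a missing value, 73 were highest in 5 mM replicate 1, against 33.0% of all genes. Without that cow 45 of 78 had a difference above 0, against 52.8% of all genes, with a median of 0.01 for the members and 0.01 for all genes. On the array of that cow the medians were 0.48 in the large and 0.46 in the small subunit.

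**Figure D1:**
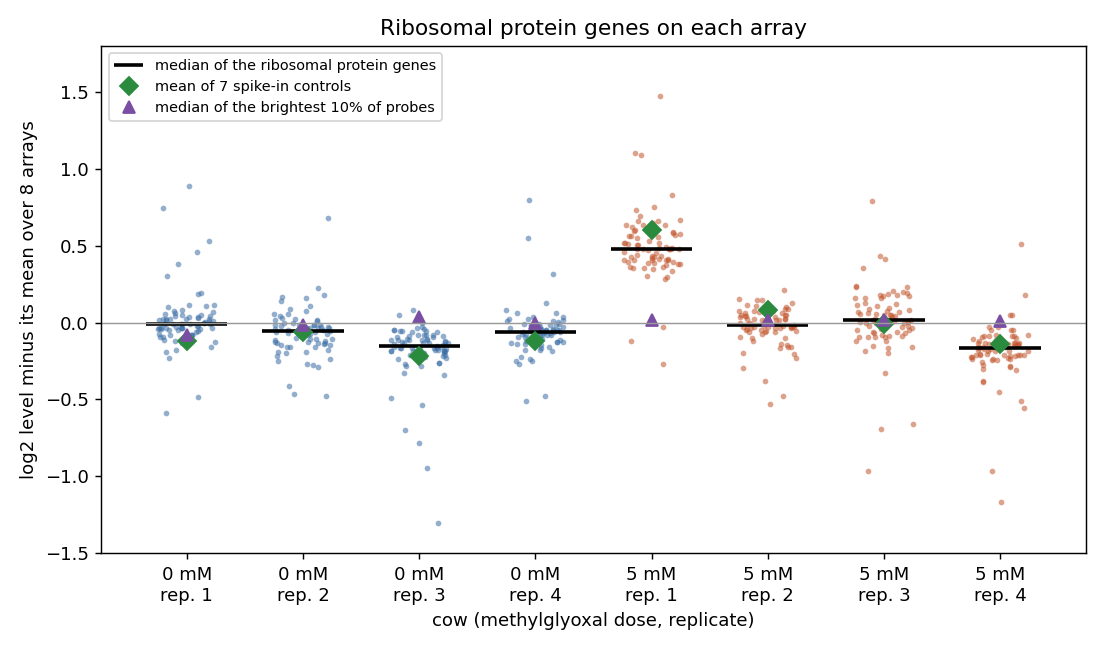
Each point is 1 of the 78 tested ribosomal protein genes, as its log2 level minus its mean over the 8 arrays, by cow; bars are medians, diamonds the mean of 7 spike-in controls and triangles the median of the brightest 10% of probes. The bar and the diamond of 5 mM replicate 1 stand at 0.48 and 0.60, while its triangle stays with those of the other arrays.

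The spike-in controls, synthetic RNAs added to the total RNA before labelling, were also highest on that array. The mean of 7 of them was 4.05 in 5 mM replicate 1, between 3.24 and 3.40 in the 4 control cows, and 3.54, 3.45 and 3.32 in 5 mM replicates 2 to 4. Each of the 7 exceeded its mean over the other arrays there, by 0.52 to 0.80. The ribosomal protein genes exceeded theirs by a median of 0.55, with 69 of 78 between 0.3 and 0.8. The median of the brightest 10% of probes showed no such step, at 3.33 to 3.45 over the arrays and 3.43 in 5 mM replicate 1. Of the 78 members, 74 had a probe in that class, but most members lay well above its median. After quantile normalization the median member stood at 0.03 above its own mean on 5 mM replicate 1, in place of 0.48. The part of the spike-in level in the members' level was not tested.

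Among the 4 control cows the members varied little. The median SD over these cows was 0.09 for the 78 members, 0.27 for all tested genes and 0.18 for the 1900 genes whose brightest probe was in the brightest 10%. An SD under 0.1 was found in 56.4% of the members and 9.30% of all genes. RPS7, a small subunit protein, was at 5.22, 5.22, 5.22 and 5.21 in the 4 control cows. RPS10, another small subunit protein, was at 5.70, 5.74, 5.68 and 5.75. In the cows given 5 mM the members' median SD was 0.29 with all 4 cows and 0.14 without replicate 1.

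In the large subunit, RPL13 had the lowest p of all members. It was at 6.08, 5.77, 5.73 and 5.81 in the control cows and at 6.69, 6.13, 6.24 and 6.01 in the cows given 5 mM. The groups overlapped only through 0 mM replicate 1, which was above 5 mM replicate 4. The means were 5.85 ± 0.16 and 6.27 ± 0.30 (SD, n = 4), the difference 0.42 with a standard error of 0.18, and the adjusted p 0.913 (limma). Without 5 mM replicate 1 the difference was 0.28. These values are of the brightest of 5 tested RPL13 probes. The other probes gave differences of 0.59, 0.31, 0.06 and -0.04 with all cows. Without that cow these were 0.41, -0.32, -0.12 and -0.25. RPL29, a small basic protein that also binds heparin, was at 6.40, 6.36, 6.54 and 6.65 in the control cows and at 7.12, 6.61, 6.79 and 6.58 in the others. Here 5 mM replicates 1 and 3 exceeded all control cows, and the difference was 0.29 ± 0.16 (SE) with an adjusted p of 0.913 (limma). It was 0.17 without 5 mM replicate 1.

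RPL3, which reaches toward the peptidyl transferase centre, was at 4.46, 4.52, 4.33 and 4.32 in the control cows and at 5.07, 4.53, 4.27 and 4.22 in the cows given 5 mM. Apart from replicate 1 the latter spanned the control values, and the difference turned from 0.11 to -0.07 without that cow. RPL5 and RPL11 bind the smallest ribosomal RNA of that subunit and, outside the ribosome, the ubiquitin ligase MDM2. RPL5 was at 5.69, 5.47, 5.58 and 5.61 in control cows and at 6.14, 5.57, 5.71 and 5.53 in the others. RPL11 was at 5.26, 5.17, 5.13 and 5.31 in control cows and at 5.71, 5.41, 5.31 and 5.12 in the others. Both genes overlapped between the groups, with differences of 0.15 and 0.17 that became 0.02 and 0.06 without replicate 1.

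The stalk proteins recruit the elongation factors. RPLP0, the stalk's base, was at 5.65, 5.59, 5.52 and 5.48 in control cows and at 6.09, 5.59, 5.41 and 5.27 in cows given 5 mM. Its 5 mM replicate 1 was the highest cow and 5 mM replicates 3 and 4 the lowest, for a difference of 0.03 ± 0.19 (SE) that turned to -0.13 without replicate 1. RPLP1 was at 5.95, 5.84, 5.74 and 5.93 in control cows and at 6.43, 6.02, 5.86 and 5.85 in the others. RPLP2 had a control SD of 0.03, at 6.34, 6.39, 6.33 and 6.33, and was at 6.93, 6.35, 6.52 and 6.42 in cows given 5 mM. The differences of RPLP1 and RPLP2 were 0.18 and 0.21 with all cows and 0.05 and 0.08 without replicate 1.

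In the small subunit, RPS24 was lowest in p. It was at 3.67, 3.86, 3.19 and 3.17 in control cows and at 4.30, 3.68, 3.84 and 3.73 in the others, with a difference of 0.41 ± 0.22 (SE) that became 0.28 without 5 mM replicate 1. Control replicate 2 lay among the cows given 5 mM, and the other 3 control cows below them. These values are of the brightest of 3 tested RPS24 probes. The other probes gave differences of 0.40 and, at the edge of the array, -0.51. Without 5 mM replicate 1 these were 0.10 and -1.54. RPS6 was at 5.41, 5.26, 5.19 and 5.14 in control cows and at 6.07, 5.38, 5.59 and 5.22 in the others, by the brightest probe printed above. Its difference of 0.32 ± 0.20 (SE) became 0.15 without replicate 1. The other tested RPS6 probes gave 0.16, 0.15, 0.09, 0.06, -0.64 and, at the edge of the array, 0.82. Without that cow these were 0.07, 0.02, -0.11, -0.08, -1.24 and -0.53. RPSA, the laminin receptor precursor, was at 4.67, 4.73, 4.61 and 4.71 in control cows and at 5.14, 4.79, 4.60 and 4.49 in the others. By this brightest probe RPSA overlapped, and its difference turned from 0.08 to -0.05 without replicate 1. The other tested RPSA probe was at 3.39, 2.98, 3.31 and 3.21 in control cows and at 4.38, 3.67, 3.48 and 3.55 in the others. By that probe the groups did not overlap, and the difference was 0.55 ± 0.22 (SE), and 0.34 without replicate 1.

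RPS15, a small subunit protein, was also among the 8 with the lowest p. Its difference was 0.28 with all cows and 0.14 without 5 mM replicate 1. RPS27A is made as a fusion with ubiquitin. It was at 6.53, 6.43, 6.40 and 6.60 in control cows and at 6.96, 6.53, 6.58 and 6.48 in the others, for a difference of 0.15 that became 0.04 without replicate 1. The adjusted p of both genes was 0.913 (limma).

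**Figure D2:**
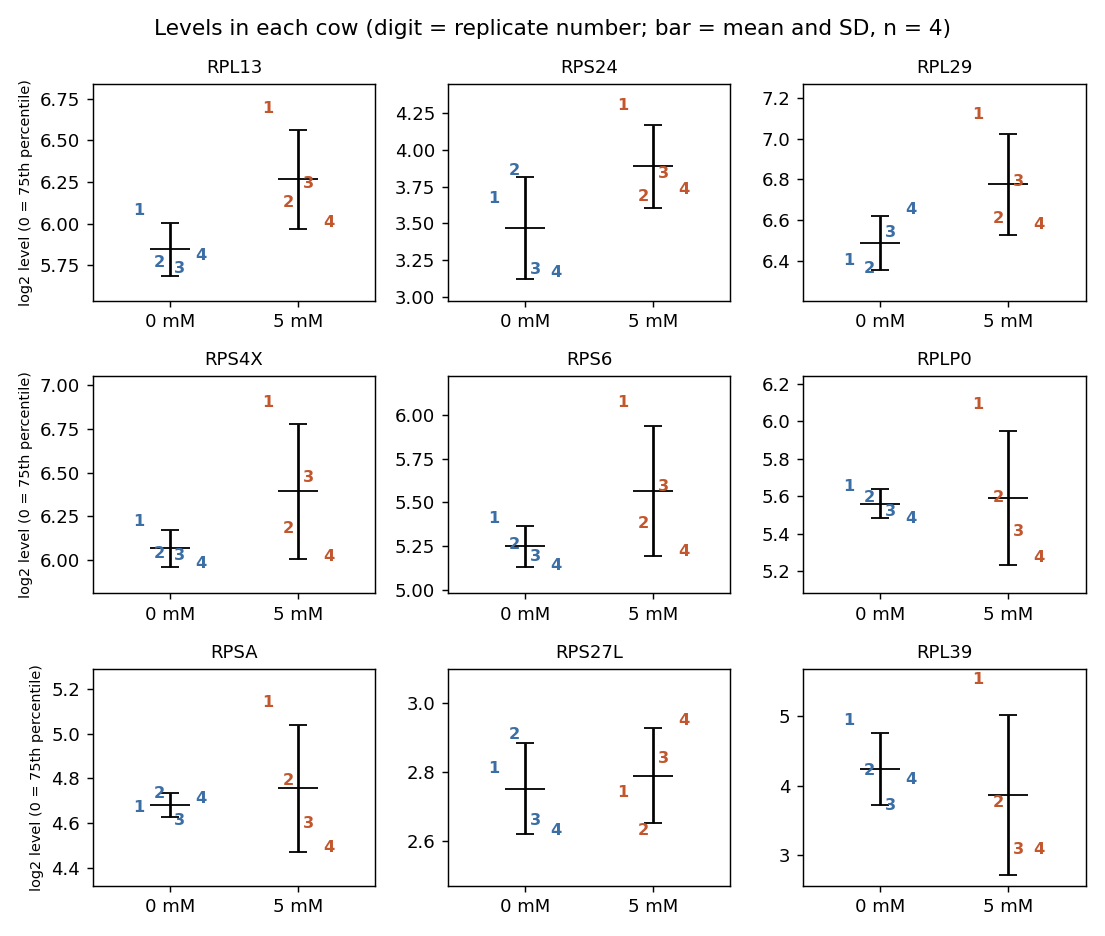
Log2 levels of 9 ribosomal protein genes in each cow, with digits for the replicate number and bars for the group mean and SD over 4 cows; the vertical axes differ and do not start at 0. In 8 of the 9 genes the digit 1 is at the top of the 5 mM group and above all control cows; in RPS27L it is not.

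**Figure D3:**
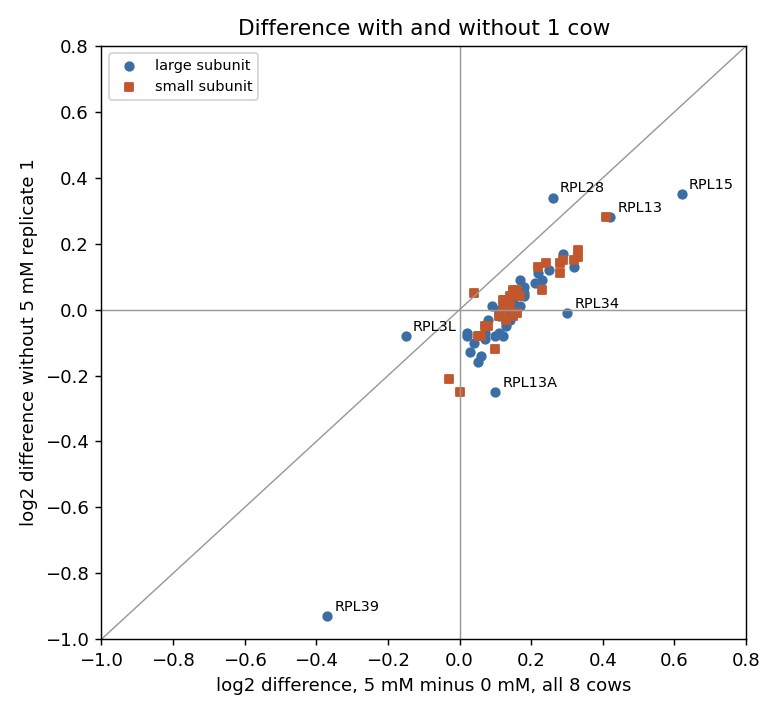
The log2 difference of each of 78 genes with all 8 cows (horizontal) and without 5 mM replicate 1 (vertical); the diagonal marks equal values. Most genes lie to the right of 0 and below the diagonal, and RPL39 lies at -0.37 and -0.93.

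The X-linked RPS4X was at 6.22, 6.04, 6.03 and 5.98 in control cows and at 6.90, 6.18, 6.47 and 6.02 in the others, with a difference of 0.33 ± 0.21 (SE) that became 0.16 without 5 mM replicate 1. These values are of the brightest of 5 tested RPS4X probes. The other probes gave 0.42, 0.12, 0.09 and 0.06, and without that cow 0.21, 0.00, -0.03 and -0.02. RPS4Y1 was at 5.10, 5.12, 4.98 and 5.01 in control cows and at 5.73, 5.24, 5.16 and 4.75 in the others. Its probe was well above background on all 8 arrays. The RPS4Y1 difference was 0.16 with all cows and -0.01 without replicate 1, and signal from near-identical copies cannot be separated by name alone.

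Several copies have genes of their own. RPS27L, a copy of RPS27, was at 2.81, 2.91, 2.66 and 2.63 in control cows and at 2.74, 2.63, 2.84 and 2.95 in cows given 5 mM. Its value in 5 mM replicate 1 was -0.03 relative to its mean over the other arrays, and it was 1 of the 3 members without a missing value that were not highest there, with RPL28 and RPL3L. RPL36AL, a copy of RPL36A, was at 5.77, 5.73, 5.61 and 5.68 in control cows and at 6.14, 5.80, 5.76 and 5.60 in the others, highest in replicate 1 like the majority. By its brightest probe the copy RPL3L, known from striated muscle, was well above background in 3 control cows and 2 cows given 5 mM, at -5.68 ± 0.78 and -5.83 ± 0.40 (SD, n = 4). The other tested RPL3L probe was well above background on 7 arrays, with group means of -5.75 at 0 mM and -5.97 at 5 mM. RPL10L, known from testis, was not well above background on any array.

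RPL34 and RPL28 each rested on 1 tested probe, so that probe and transcript cannot be told apart. RPL34 had 1 probe, which lay between -6.30 and -4.26 and was among the 4 members with the widest range over the control cows. RPL28, a large subunit protein, was at 3.40, 3.51, 3.99 and 4.54 in control cows and at 3.87, 3.79, 4.78 and 4.04 in the others, with an SD of 0.52 over the control cows. Both genes overlapped between the groups.

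The probes of a gene agreed in sign for 50 of the 71 genes with several tested probes. The spread of the difference over a gene's probes had a median of 0.20, and it exceeded 0.3 in 22 genes. Over the 273 tested probes 246 had a difference above 0, and 143 without 5 mM replicate 1. For 5 of these probes the unadjusted p was under 0.05, against 1.91% of all probes, none of them the brightest of its gene. In 5 genes (RPL35A, RPL39, RPL7A, RPS14 and RPS27) the files placed the tested probes on more than 1 chromosome, so that near-identical copies may share their signal.

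Where probes disagreed, they often lay at the edge of the array, a grid of 532 rows and 85 columns. The RPS6 probes that share 43 bases are an example. The probe in row 409 was at 5.13, 5.04, 4.95 and 4.99 in control cows and at 5.53, 5.07, 4.96 and 4.80 in cows given 5 mM. The probe in row 531 was at 4.80, -2.78, -3.09 and 1.41 in control cows and at 4.93, -2.46, 1.14 and 0.00 in the others. The latter followed the slides: near 5 on slide 1, between -3.09 and -2.46 on slide 2 and between 0.00 and 1.41 on slide 3, whatever the dose. RPS29, a zinc-binding small subunit protein, did the same. Its probe in row 529 was at 5.25 and 5.32 on slide 1, at -0.10 on slide 2 and from 2.94 to 3.72 on slide 3, with 2 values missing, while its probe in row 231 stayed between 5.45 and 5.96.

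The spread between arrays went with position on the grid. Over all tested probes, with 5 mM replicate 1 left out, the median SD over the other 7 arrays was 1.18 in the 6 rows nearest either end, 0.45 in rows 7 to 20, 0.33 in rows 21 to 50 and 0.27 farther in. The ribosomal protein probes had 1.95 (3 probes), 0.30 (16), 0.22 (27) and 0.15 (225). Away from the end rows, the outermost columns gave 0.44 for all probes and 0.58 for 6 ribosomal protein probes, against 0.27 and 0.15 in the 11th column and beyond. Of the 20 ribosomal protein probes with the widest SD, 15 lay within 20 rows or 3 columns of the edge. For 42 pairs of probes of a gene that shared at least 30 bases and lay away from the edge, the differences were a median of 0.06 apart, and for 15 pairs with a probe at the edge 0.20.

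**Figure D4:**
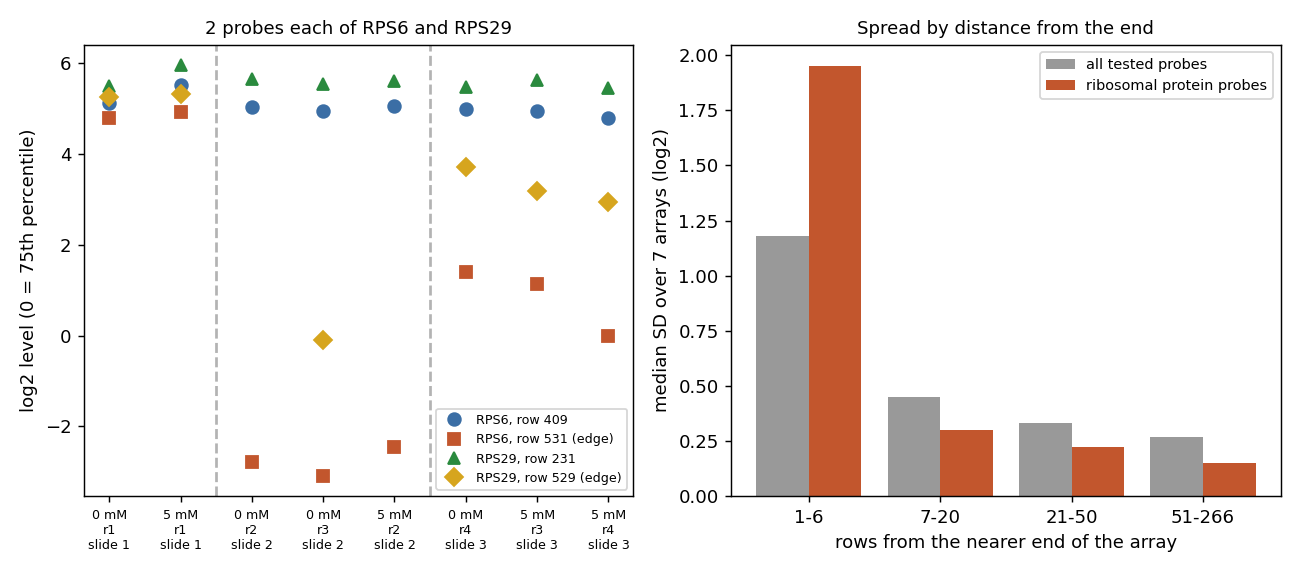
Left, log2 levels of 2 probes each of RPS6 and RPS29 on the 8 arrays in order of slide, with dashed lines between slides; right, the median SD over 7 arrays by rows from the nearer end of the array, for all tested probes and for ribosomal protein probes. The probes in rows 531 and 529 follow the slides, and the spread falls from 1.18 in the outer 6 rows to 0.27 inside.

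The brightest probe lay at the edge in 10 of the 78 genes, among them RPL13A, RPL15, RPL18, RPL23, RPL39, RPL3L, RPS13, RPS15A and RPS21. The 10 included all 4 with the most negative difference and 3 of the 4 with the widest range over the control cows. RPL39, which lines the exit tunnel, was at 4.94, 4.22, 3.71 and 4.09 in control cows and at 5.53, 3.76, 3.09 and 3.09 in the others, in column 1. The difference was -0.37 ± 0.56 (SE), and -0.93 without 5 mM replicate 1, with an unadjusted p of 0.0218 and an adjusted p of 1 (limma). By the 2 RPL39 probes away from the edge it was 0.31 and 0.26, and 0.17 and 0.18 without that cow. The files place the latter probe on another chromosome. RPL15 had the highest difference of all, 0.62 ± 0.49 (SE), with 1 value missing in each group, and 0.35 without 5 mM replicate 1. Its 7 other tested probes gave differences from 0.05 to 0.35. RPS15A, of the small subunit, had a difference of 0.00 ± 0.33 (SE), and -0.25 without replicate 1. By the 2 RPS15A probes away from the edge it was -0.38 and 0.21, and -0.68 and 0.03 without that cow. RPL13A was at 5.56, 4.35, 4.03 and 5.13 in control cows and at 5.92, 4.66, 5.23 and 3.65 in the others, in column 85, with a difference of 0.10 that turned to -0.25 without replicate 1. With edge probes left out, a choice made after seeing the data, 75 members still had a difference above 0, with a median of 0.14.

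Probes on the strand opposite to a gene's messenger also gave signal. Of 14 such probes, on the same chromosome as the gene's messenger probes, 8 were well above background on all arrays and 3 on none. All 10 that were tested had a difference above 0 with all cows, with a median of 0.36, and none passed the adjusted threshold (limma). Without 5 mM replicate 1 it was above 0 in 9 of the 10, with a median of 0.24, and -0.11 for the RPL3 probe. Of these 10, the RPL12 and RPL37 probes lay at the edge of the array, with differences of 0.46 ± 0.75 and 0.36 ± 0.23 (SE). The share above 0 among all probes of like level is not given here. The RPL10 minus strand probe printed above was at -1.53, -1.04, -1.89 and -1.14 in control cows and at -0.73, -1.01, -0.92 and -1.30 in the others. Its plus strand partner was at 3.93, 3.96, 3.78 and 3.74 in control cows and at 4.45, 3.99, 4.37 and 3.82 in the others. Both were highest in 5 mM replicate 1, and their differences were 0.41 ± 0.23 and 0.30 ± 0.18 (SE), and 0.32 and 0.21 without that cow.

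Other genes of the translation machinery were set beside the members. Of 25 other TOP messenger genes 23 had a difference above 0, with a median of 0.27 that became 0.12 without 5 mM replicate 1. Their median on that array was 0.57 above their mean over the arrays, and 21 of the 25 were highest there. EIF3E, an initiation factor subunit, had the lowest p of them, with a difference of 0.46 ± 0.23 (SE), and EEF1D, an elongation factor subunit, followed with 0.42 ± 0.22 (SE). Without replicate 1 these were 0.33 and 0.30. A separate list of 37 initiation, elongation and release factors, which shares no tested gene with the TOP list, had a median difference of 0.08, and 0.05 without that cow. Its lowest p belonged to EIF3M, with 0.42, and EIF3D, with 0.36, which became 0.28 and 0.20.

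The mitochondrial ribosome is built from other proteins. Of its 78 tested proteins 47 had a difference above 0, with a median of 0.05, and their median on 5 mM replicate 1 was 0.00. Lowest in p were MRPL15, of its large subunit, with a difference of -0.39, and MRPS23, of its small subunit, with 0.24, and these became -0.21 and 0.20 without replicate 1. Of 64 ribosome biogenesis genes 44 had a difference above 0, with a median of 0.08 and a median of 0.12 on that array. RRN3, which brings RNA polymerase I to the ribosomal genes, was 0.39 ± 0.15 (SE) higher, with an unadjusted p of 0.0315. Of 22 genes of the mTOR, MYC and S6 kinase pathways 15 had a difference above 0, with a median of 0.05, RICTOR, a subunit of an mTOR complex, leading with 0.29. The copies RPL7L1, RPL22L1 and RPL26L1 had differences of 0.11, 0.04 and 0.25 with all cows, and of 0.10, -0.13 and 0.19 without 5 mM replicate 1. None of the genes of these lists passed the adjusted threshold (limma).

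**Figure D5:**
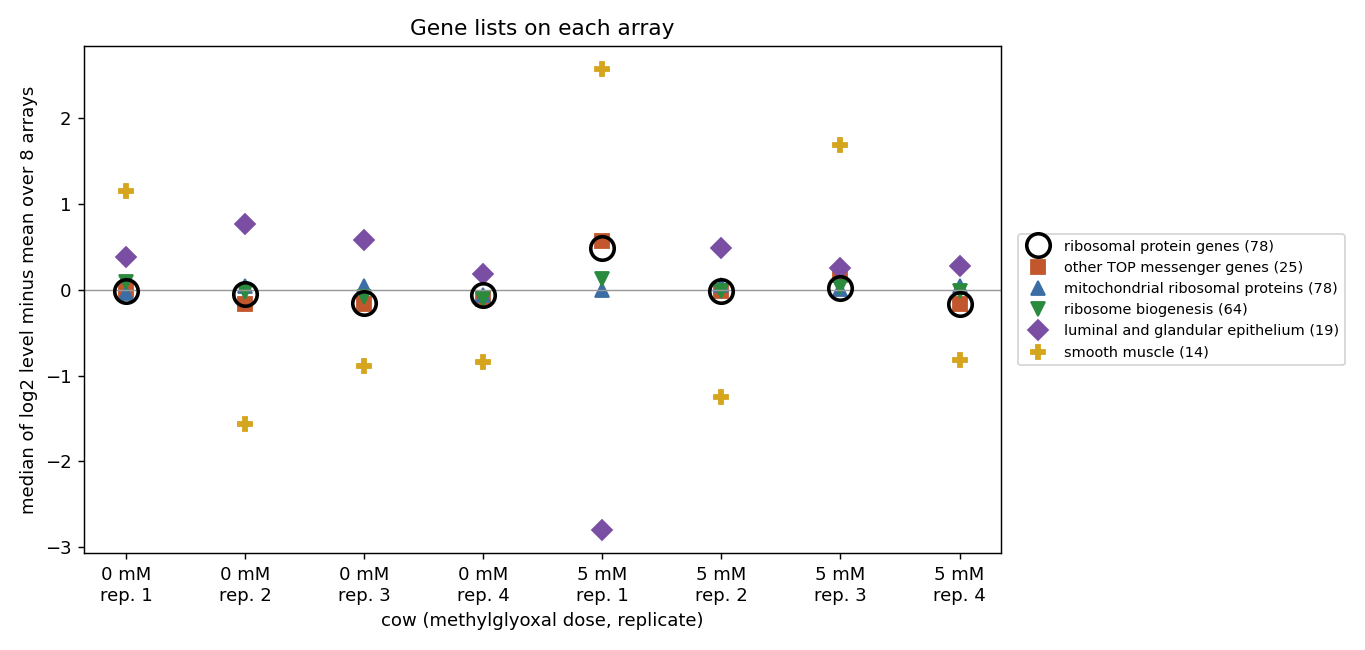
Median of log2 level minus its mean over the 8 arrays for the ribosomal protein genes and 5 other lists, by cow, with the number of tested genes in brackets. On 5 mM replicate 1 the ribosomal protein and TOP messenger genes stand at 0.48 and 0.57, smooth muscle markers at 2.57 and epithelial markers at -2.80.

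Epithelial markers were lowest and smooth muscle markers highest in 5 mM replicate 1. The summed linear level of 19 of 20 epithelial markers was 19.9 in 5 mM replicate 1, from 96.7 to 106 in the other cows given 5 mM and from 92.5 to 116 in the control cows. CLDN3, FOXA2, GRHL2 and KRT5 of that list were not well above background there. The summed level of all 14 smooth muscle markers was 700 in 5 mM replicate 1, from 65.6 to 425 in the other cows given 5 mM and from 44.9 to 341 in the control cows. The muscle markers were also high in 5 mM replicate 3 and 0 mM replicate 1, with medians of 1.68 and 1.15 above their means, where the ribosomal protein genes stood at 0.02 and -0.01. The part of tissue makeup in the members' level on 5 mM replicate 1 was not tested.

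Within slides, the members' median difference was 0.48 on slide 1, with 1 cow in each group, 0.10 on slide 2 and -0.02 on slide 3. The number of members above 0 was 77, 65 and 33 of 78 in turn. With slide as a block the median was 0.16, and no member passed the adjusted threshold (limma).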

How the data were processed

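Arrays of design 023647 (coordinates on HGSC Btau_3.1, per the file headers) gave the deposited spot intensities, background-subtracted and detrended by the authors with Feature Extraction, whose version the headers give as 11.5.1.1 and the submitters' processing notes as 10.5.1.1. The authors' deposited value table holds log2 values and served as an alternative. It matched log2 intensities centred per probe (r of at least 0.999 across probes). The medians of its columns in the control cows were -0.016, -0.024, 0.00088 and -0.0065, and in the cows given 5 mM 0.13, -0.0048, -0.011 and 0.013, in replicate order.

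Control spots and spots marked as outliers were left out, log2 values averaged per probe, and the log2 75th percentile subtracted. Probes well above background on at least 4 of 8 arrays were tested with limma 3.58.1 in R 4.3.3 (lmFit, eBayes, Benjamini-Hochberg, threshold 0.05), which was checked on simulated data. The brightest tested probe stands for a gene. Symbols other than the members' came from a RefSeq table of assembly ARS-UCD2.0. The number of arrays limits the precision.

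Members, lists and tests were chosen with earlier results of these data known. Named members were the 8 lowest in p, the 4 most negative differences, the 6 widest probe spreads, the 4 widest ranges over control cows, members of known roles, copies and members below background; RPS7, RPS10 and RPL28 and single probes were named after their values were seen. The results of 4 named members are not reported here. Alternatives were quantile, median and normexp (offset 50) scaling, the filters, eBayes settings, array weights, probe choice, slide and replicate blocks and leaving out each cow; scaling to spike-ins or to the brightest 10% of probes and leaving out edge probes were added after seeing the data.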

Additional observations from a re-analysis of the deposited data

Results flagged for a closer look

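None of the 24 named members reported here had, in a group of 4 cows without a missing value, a cow beyond Dixon's 95% critical value; chance gives about 1 in 20 groups. Of the list medians, 5 mM replicate 1 stood apart from the other 3 cows given 5 mM for 3 lists. Luminal and glandular epithelium was at -2.80, against 0.25 to 0.49 in those 3 cows and 0.18 to 0.77 in the control cows. T and NK cell markers were at -1.23, against -0.03 to 0.08 and, in the control cows, -0.20 to 0.66. Stromal fibroblast markers were at 0.53, against -0.19 to -0.08 and, in the control cows, -0.14 to 0.13. By summed linear level the T and NK cell markers did not stand apart. That sum was 13.3 in 5 mM replicate 1, 13.1 to 15.1 in those 3 cows and 12.2 to 17.5 in the control cows. CD5, GZMA, PRF1 and KLRD1 of that list were not well above background in 5 mM replicate 1. The part of these markers in the level of the ribosomal protein genes was not tested.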

How the results depend on the processing

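No probe and no member passed the adjusted threshold under any alternative run, and at most 3 members had an unadjusted p under 0.05. The number of members above 0, 75 of 78, became 42 after quantile normalization, 33 within slide 3, 12 after a shift to the spike-in controls and 40 with quantile normalization and without 5 mM replicate 1, a combination added after seeing the data. Leaving out 1 cow gave 45 to 75, the lowest without 5 mM replicate 1, and medians of 0.01 to 0.23, the lowest again without that cow. The median difference of 0.14 became 0.48 within slide 1 and -0.12 with the spike-in shift; with array weights it was 0.03, 5 mM replicate 1 having a weight of 0.194. Of the 28 named members, 8 kept 1 sign under every alternative and 20 did not, 16 turning with the spike-in shift, 9 with quantile normalization and 7 without 5 mM replicate 1. The causes were not tested. Replicate numbers name different cows, so the main fit did not pair them. Same-numbered samples correlated from -0.302 to 0.403 in their deviations from the group means, and 6 of 8 correlated best with their own number. The samples numbered 1 shared a slide, as did those numbered 2 and those numbered 4. The part of the slide in these correlations was not tested. A replicate block gave 0 calls, 75 members above 0 and a median of 0.14. Members dim on the arrays, RPL3L and RPL34, are limited by signal over background.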

Other observations

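The ribosomal protein genes ranked the cows in a similar way at the low end. Of 76 members without a missing value, 36 were lowest in 5 mM replicate 4 and 22 in 0 mM replicate 3, where the spike-in means, 3.32 and 3.24, were also the lowest of the 8 arrays. The share of all genes lowest on these arrays is not given here, so the ranking cannot be called particular to the members. The excess in 5 mM replicate 1 over the mean of the other arrays was a median of 0.62 for 29 RefSeq messenger probes that begin in the first 200 bases and 0.59 for 215 that begin later.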
